A study of Pan troglodytes with 8 samples.

Results

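Chromatin accessibility in basal intermediate progenitors (bIP) was compared with that in apical radial glia (aRG), both sorted by flow cytometry from chimpanzee cerebral organoids. The comparison covers every region of the deposited count table that has a chimpanzee (panTro6) identifier, whatever gene lies closest to it. These were 211348 regions of 218080 rows, and they were read in the 2 bIP and the 2 aRG libraries out of 8 in all. The other libraries came from basal radial glia (bRG) and from BCL11B+ neurons (N), with 2 each. All organoids were grown from 1 induced pluripotent stem cell line, SandraA, seeded at 9000 cells, and had been cultured for 8 weeks, give or take 3 days, when sorted. No allele, transgene or drug distinguished the groups: the sorted cell type was the difference between them. Apart from BCL11B for the neurons, the sort markers and the gates were not given in the sources used here. Neither was what the library numbers 1 and 2 stand for, so p-values measure the spread between these libraries, which come from 1 cell line.

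Apical radial glia are stem cells of the embryonic cortex that border its ventricle, where adherens junctions and Notch signalling hold them in place and keep them dividing. Basal intermediate progenitors arise from them, lose the contact with the ventricle, switch on the T-box factor EOMES and then mostly divide into neurons. In ATAC-seq, a transposase cuts open chromatin and marks it for sequencing, so the read count of a region reports how open promoters and distal elements are, not how much RNA a gene makes.

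The aRG libraries held 27883664 and 24994712 counts and the bIP libraries 26083288 and 24913928, within the range of all 8 libraries (24913928 to 34845193). Levels are given as CPM, counts scaled to a common library total after TMM. Across the 198227 regions tested, Pearson's r of log2(CPM + 1) reached 0.982 for the aRG pair, 0.965 for the bIP pair and was 0.76 to 0.832 between an aRG and a bIP library. These correlations describe regions, which are not replicates. The library bIP 1 stood further from aRG than bIP 2 did (0.763 and 0.76 against 0.823 and 0.832). Log2 fold changes are bIP over aRG with their standard error from edgeR's quasi-likelihood fit. A region is said to have risen or fallen when its Benjamini-Hochberg adjusted p over all regions tested was under 0.05. The deposited distance to the closest gene is read here as distance from the gene start, which the headers do not state.

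The labelled cell types were first checked at EOMES, which defines intermediate progenitors, and SOX2, a transcription factor of neural stem cells. The region at the EOMES start (panTro6 chr3:27890461-27894611) held 40.1 and 38.5 CPM in aRG and 61.2 and 59.1 CPM in bIP. Both bIP libraries lay above both aRG libraries, and the region rose by 0.61 ± 0.15 on the log2 scale (adjusted p = 0.0047). It was thus far from closed in aRG, and its level in bRG (29.9 and 34.9 CPM) and in N (37.4 and 25.7 CPM) was also below that in bIP.

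A distal EOMES region changed more. The region 23853 bp from the EOMES start (chr3:27915868-27916995) had 0.744 and 1.18 CPM in aRG and 3.02 and 4.72 CPM in bIP. It rose by 2.01 ± 0.37 (adjusted p = 0.00085) and lay in a bIP peak but in no aRG peak of the deposited lists. The other 3 regions within 50 kb of EOMES did not pass, with log2 fold changes of 0.16 ± 0.29, -0.15 ± 0.24 and 0.28 ± 0.48.

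The SOX2 start (chr3:179797765-179799818) went the other way. It held 74.4 and 67.9 CPM in aRG and 28.0 and 32.4 CPM in bIP, without overlap, a log2 fold change of -1.24 ± 0.14 (adjusted p = 3e-05). The region 3156 bp away (chr3:179795561-179796420) fell further, from 38.1 and 28.1 to 7.49 and 10.3 CPM, by -1.89 ± 0.20 (adjusted p = 2.3e-05). One SOX2 region moved against these. At 371 bp from the start (chr3:179799954-179800965), levels were 6.85 and 6.01 CPM in aRG and 9.96 and 11.3 CPM in bIP, a log2 fold change of 0.73 ± 0.24 (adjusted p = 0.023), a call that was lost without aRG 1, aRG 2 or bIP 2. The region 1969 bp from SOX2 did not pass (-0.37 ± 0.29). EOMES and SOX2 thus differed between the libraries in the direction of their labels. In sorted bulk cells, fewer open cells and less opening per cell cannot be told apart.

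Regions that opened slightly outnumbered those that closed between the 2 cell types. Of 198227 regions tested, 93512 (47.2%) passed, of which 48630 rose (24.5% of those tested) and 44882 fell (22.6%). Rises were the larger changes. The median log2 fold change was 1.96 among regions that rose (5th to 95th percentile 0.97 to 3.45) and -1.49 among those that fell (-2.55 to -0.41). At least 2-fold rises numbered 45769 (23.1%) and at least 2-fold falls 35022 (17.7%), and at least 4-fold changes 23494 (11.9%) and 9859 (4.97%). Both bIP libraries lay above both aRG libraries in 76734 regions (38.7%) and below them in 72990 (36.8%). Nearly all called regions were apart in this way, 48598 of the 48630 rises and 44870 of the 44882 falls. A lack of overlap at a called region therefore adds little to its call.

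The split depends on how the libraries are scaled. With TMM factors taken only from regions at gene starts, 58949 regions rose and 32002 fell, so that 64.8% of the calls were rises against 52.0% with the factors from all regions. The median log2 fold change of all regions was 0.05 with TMM, 0.22 with library totals alone and 0.32 with gene-start TMM. Fold changes below use TMM from all regions unless another setting is named, and these medians were not subtracted from them. Without bIP 1, 29402 regions fell.

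In the regions called between bIP and aRG, the median level of bIP lay between those of radial glia and neurons. These regions were chosen by the difference between aRG and bIP, so only bRG and N add to it. In the regions that rose, the median level was 0.627 and 0.672 CPM in the aRG libraries and 3.16 and 2.53 CPM in the bIP libraries. The libraries that did not enter this difference had 0.765 and 0.782 CPM in bRG and 4.1 and 3.65 CPM in N. In the regions that fell, the median was 5.21 and 4.87 CPM in aRG, 1.42 and 1.8 CPM in bIP, 5.0 and 4.66 CPM in bRG, and 0.745 and 0.786 CPM in N. By these medians, rising regions had low levels in both kinds of radial glia, and falling regions were lower in N than in bIP. Over all regions tested the medians were closer: 1.33 and 1.34 CPM in aRG, 1.38 and 1.36 in bRG, 1.56 and 1.54 in bIP, and 1.74 and 1.85 in N.

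The bIP libraries differed in how far they had moved. The library bIP 1 was the higher of the pair in 69.2% of the regions that rose (median log2 ratio 0.25) and in 26.1% of those that fell (-0.24), so it was further from aRG in both sets. The aRG pair showed no such lean among regions that rose (median log2 ratio -0.02), and aRG 1 was slightly higher among those that fell (0.07).

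**Figure D1:**
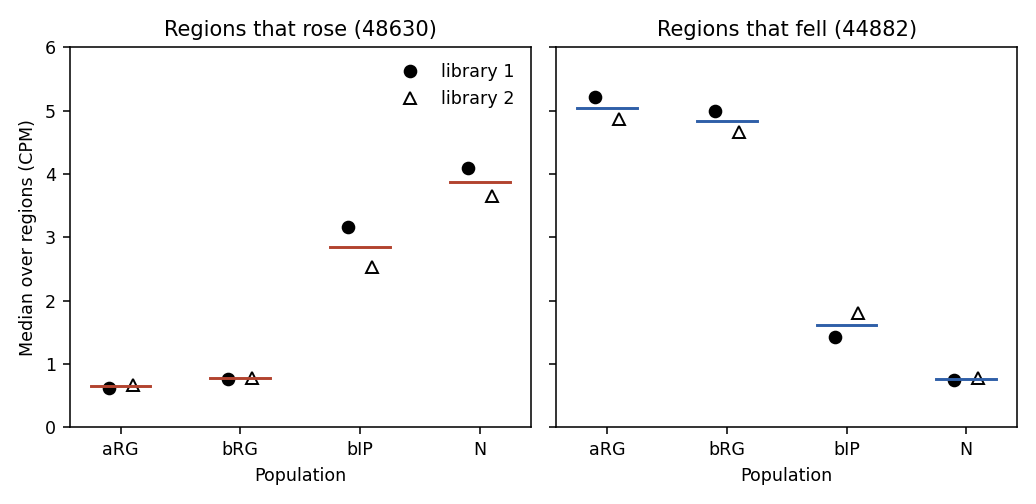
Median level (CPM, linear axis) over the 48630 regions that rose (left) and the 44882 that fell (right) from aRG to bIP, for each library of the 4 populations. Filled circles are library 1, open triangles library 2 and bars the mean of the pair. In both panels bIP lies between the radial glia and N, and bIP 1 lies further from aRG than bIP 2. The regions were chosen by the difference between aRG and bIP.

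Distance from genes separated 2 kinds of region. Regions at a gene start (distance 0 in the table, 16146 tested) were wide open, with a median of 19.8 CPM over the 8 libraries against 1.86 CPM over all regions, and they changed little in size. Their median absolute log2 fold change was 0.34, against 0.99 for the 178950 regions away from a gene start. At least 2-fold rises made up 5.46% of gene-start regions and 24.7% of regions away, and at least 2-fold falls 6.29% and 18.7%. Under the 3 other scalings tried within edgeR, the median absolute log2 fold change at gene starts was 0.19 to 0.22 and away from them 0.97 to 1.02.

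The direction at gene starts was less firm than the size. There, 1138 regions rose (7.05%) and 5686 fell (35.2%), with a median log2 fold change of -0.27. Falls numbered 2872 with DESeq2, 2645 with library totals, 1983 with loess offsets and 1790 with gene-start TMM, and the last 2 scalings brought the median to 0.03 and 0.00. Without aRG 1, aRG 2 or bIP 1, falls numbered 2996, 3524 and 3033. Many small falls at gene starts are therefore within what a change of scaling moves.

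Beyond the gene start, the shares hardly varied with distance. From 1 bp to 1 kb, 21.7% of regions rose and 21.3% fell. The shares were 25.5% and 20.2% at 1 to 10 kb, 26.4% and 21.4% at 10 to 50 kb, 26.9% and 22.7% at 50 to 200 kb, and 25.1% and 23.4% over 200 kb. Regions over 200 kb from any gene start in the table thus changed about as often as those a few kilobases away. The build in which these distances were measured was not given in the sources used here.

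**Figure D2:**
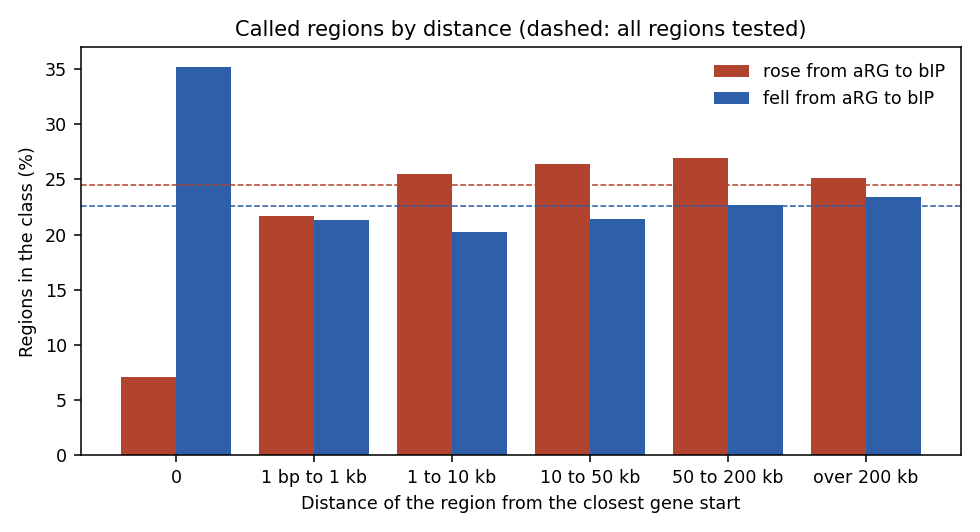
Share of tested regions (%, vertical axis from 0) that rose (red) or fell (blue) from aRG to bIP, by distance from the closest gene start. Dashed lines mark the shares over all regions, 24.5% and 22.6%. The gene-start class stands apart with 7.05% rising and 35.2% falling, a balance that changes with the scaling, while the other classes stay near the lines.

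The type of the closest gene made little difference. A gene was classed as protein-coding when a RefSeq gene list gives its symbol as such. The other class therefore also holds symbols that the list lacks, whatever their type. Regions closest to a protein-coding gene rose in 21.5% and fell in 23.6% of 55838 cases, and those closest to another gene rose in 25.8% and fell in 22.2% of 139258. Away from gene starts the 2 classes came close: at 10 to 50 kb, 26.1% rose and 20.1% fell for protein-coding genes, and 26.5% and 21.8% for the others. Regions closest to a microRNA gene rose in 27.7% and fell in 19.9% of 6001, and those closest to a LINC gene, a class of long non-coding RNA genes between other genes, in 27.4% and 21.2% of 10590. At gene starts themselves, regions of the other class rose more often (13.3% of 5778) than protein-coding ones (3.59% of 10368), at a median of 8.21 against 23.7 CPM. Regions with a human but no gorilla counterpart in the table rose in 26.3% and fell in 17.6% of 8732, and those with a chimpanzee identifier alone in 23.9% and 26.7% of 2096.

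Among regions within 50 kb of a protein-coding gene and with a mean of at least 1 CPM, the 10 largest rises spanned log2 fold changes of 4.35 to 5.05. They lay near genes of many functions, from metabolism to synapses. The region 9101 bp from NADK, the kinase that makes NADP (chr1:424199-425053), had 0.666 and 0.63 CPM in aRG and 15.2 and 13.6 CPM in bIP. Both pairs were tight and far apart, a rise of 4.46 ± 0.38 (22.1-fold, adjusted p = 7.5e-06).

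The region 21595 bp from PTPRO, a receptor tyrosine phosphatase (chr12:15589603-15590654), went from 0.274 and 0.756 to 11.4 and 10.7 CPM and was higher still in N, at 20.6 and 20.2 CPM. Its rise was 4.43 ± 0.36 (adjusted p = 6e-06; 5.31 without aRG 2). The region 1265 bp from PNRC2, which acts in mRNA decay (chr1:22525615-22526023), rose from 0.353 and 0.21 to 5.78 and 6.99 CPM (4.47 ± 0.37, adjusted p = 6.6e-06). Other rises rested more on bIP 1. The region near DLGAP3, a scaffold of excitatory synapses, had 0.0783 and 0.168 CPM in aRG and 6.36 and 1.96 CPM in bIP (5.05 ± 0.71, adjusted p = 0.00013; 3.96 without bIP 1 and 5.66 without aRG 2). The region near KCNQ1, a potassium channel best known from the heart, had 0.313 and 0.21 CPM in aRG and 7.74 and 3.19 CPM in bIP (4.36 ± 0.67, adjusted p = 0.00024; 3.58 without bIP 1). In both, bIP 2 still lay above either aRG library, which the rule for naming regions required. The remaining 5, near TBC1D21, CSNK1A1L, WWP1, ZC3H3 and ACSM1, rose by 4.35 to 4.67. That of CSNK1A1L was 5.98 without aRG 1 and 3.87 without aRG 2, that of TBC1D21 3.89 without bIP 1, and that of WWP1 3.91 without bIP 1 and 5.19 without aRG 1. These rises rest on few aRG counts, and all 10 regions also rose from bRG to N, by 1.74 to 4.34.

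The largest falls of the same kind reported here spanned -3.86 to -3.42. The region 13555 bp from TRPM8, a cold-sensing ion channel (chr2B:120514261-120515280), had 17.2 and 13.1 CPM in aRG, 1.27 and 1.46 in bIP, and 0.31 and 0.196 in N. The pairs did not overlap, as the rule for naming regions required, and the fall was -3.47 ± 0.31 (adjusted p = 8.9e-06). The region 49033 bp from SLIT2, a secreted axon guidance protein (chr4:19776134-19777128), fell from 11.6 and 5.38 to 0.69 and 0.883 CPM (-3.43 ± 0.42, adjusted p = 6e-05; -2.77 without aRG 1). Here the aRG libraries differed, with aRG 1 the higher.

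The same spread between aRG libraries was seen in other large falls. The region 26550 bp from KDR, a receptor for vascular endothelial growth factor (chr4:73800565-73801487), had 13.9 and 7.52 CPM in aRG and 0.654 and 0.998 CPM in bIP (-3.69 ± 0.47, adjusted p = 6.7e-05). The region 10166 bp from PPARG, a nuclear receptor of fat cells, fell from 4.62 and 2.14 to 0.327 and 0.23 CPM (-3.58 ± 0.54, adjusted p = 0.00023; -2.92 without aRG 1). The lower aRG library was still several times above both bIP libraries in each. The remaining 5, near ASIC2, ABLIM1, TFPI, SPATA16 and EEA1, had log2 fold changes of -3.86 to -3.42. That near ASIC2 was -2.91 without aRG 1, and that near TFPI -2.98 without bIP 1 and -4.51 without bIP 2. All of these regions also fell from bRG to N.

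With the same minimum of 1 CPM, the 4 largest rises closest to a gene outside the protein-coding class exceeded those near protein-coding genes. They came from 139258 regions at any distance, the others from 45618 within 50 kb of a protein-coding gene. These extremes are therefore not like for like. The region 10760 bp from AC007608.1, a gene named after its clone (chr16:35694589-35695001), had 0.157 and 0.168 CPM in aRG and 9.74 and 5.72 CPM in bIP. It rose by 5.54 ± 0.58 (adjusted p = 2.2e-05) and was lower again in N (3.97 and 1.57 CPM). The region 46770 bp from the microRNA gene MIR592 (chr7:124051840-124052528) rose from 0.118 and 0.126 to 5.09 and 3.88 CPM (5.15 ± 0.49, adjusted p = 1.3e-05). The region 18898 bp from AC007346.2 had 1 and 2 counts in the aRG libraries and 74 and 90 in the bIP libraries (adjusted p = 9.5e-06), too few in aRG for a firm fold. The fourth, closest to a gene the table calls U3, a name shared by many copies of a small nucleolar RNA, held 0.196 and 0.336 CPM in aRG and 9.09 and 13.1 CPM in bIP (5.37 ± 0.47, adjusted p = 9.1e-06). In these 4 regions bIP libraries exceeded aRG libraries without overlap, as the rule for naming regions required.

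The falls of that class were near the pseudogenes RPL26P28 and RPL21P93 and the clone-named genes AC106047.1 and AP002387.1, at -3.83 to -3.67. The best covered, 76157 bp from RPL21P93 (chr10:29114273-29115284), went from 19.7 and 15.5 to 1.49 and 1.27 CPM (-3.67 ± 0.34, adjusted p = 1.2e-05) and to 0.155 and 0.393 CPM in N. Both bIP libraries lay far below aRG and above N.

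Over 200 kb from any gene start, the largest rise was 264201 bp from RNU6-463P, a pseudogene of a spliceosomal RNA (chr10:101108982-101109863). It held 0.509 and 0.588 CPM in aRG and 7.41 and 15.8 CPM in bIP, but 1.96 and 1.34 CPM in N, so bIP was the highest of the 4 populations. Its rise was 4.39 ± 0.50 (adjusted p = 3.6e-05), and unlike most rises bIP 2 was the higher library. The region 557613 bp from the start of AUTS2, a gene linked to autism (chr7:66356558-66356880), rose from 0.313 and 0.042 to 4.54 and 2.92 CPM (4.33 ± 0.63, adjusted p = 0.00018). With 8 and 1 counts in the aRG libraries its size is loose: the log2 fold change was 6.33 without aRG 1 and 3.56 without aRG 2. The RNU6-463P rise was 3.73 without bIP 2. The region 386733 bp from AC068287.1 (chr2B:28180161-28181234) reached 21.0 and 13.6 CPM from 0.666 and 1.18 (4.23 ± 0.31, adjusted p = 3.4e-06) and 27.2 and 30.8 CPM in N. The largest falls at this range lay near MIR548A1, AL355592.1, RNU6-478P and FAM71C, at -3.42 to -3.22. At the threshold itself, a region 246193 bp from RNU6-463P was the last to be called (-1.42 ± 0.55) and one 58584 bp from AC004808.2 the first left out (1.18 ± 0.46).

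Groups of genes with known roles were described by the regions within 50 kb whose closest gene is a member. Over all regions within 50 kb of any gene, 23.8% rose and 22.5% fell, with a median log2 fold change of 0.01. Gene starts had another background: over the 10368 starts of protein-coding genes, 38.3% fell and 3.59% rose, and the counts of falling starts below are to be read against these shares and shrink, as above, under other scalings. Counts of genes with a rise or a fall have a high background too, since many genes have several regions. Of 3225 protein-coding genes with at least 5 regions, 770 had rises only, 714 falls only, 1638 both and 103 no call. The lists were not tested against each other or against any of these backgrounds.

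Genes of the radial glial state closed more often than they opened. Of 178 regions of 23 radial glia transcription factors, 72 fell and 24 rose (40.4% and 13.5%), with a median of -0.49, and 22 of the 23 genes had a region that fell. At 21 gene starts of these factors 13 fell (61.9%, against 38.3% of all protein-coding starts) and 0 rose. With gene-start TMM, 31 regions of the group rose and 51 fell. SOX21, a SOX factor of neural progenitors, fell at its start from 51.9 and 41.2 to 18.0 and 22.4 CPM (-1.21 ± 0.16, adjusted p = 0.0001), without overlap. NFIA, a factor of glial fate, fell at its start from 33.3 and 32.5 to 17.6 and 21.1 CPM (-0.77 ± 0.13, adjusted p = 0.00056). A region 49849 bp from NFIA (chr1:59935277-59936122) fell more, from 31.6 and 24.4 to 3.96 and 7.68 CPM (-2.27 ± 0.26, adjusted p = 4.1e-05).

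The same genes also had regions that opened. The region 13360 bp from SOX9, a factor that keeps radial glia in a stem state and later drives glial fate (chr17:65204014-65205157), rose from 0.588 and 0.672 to 4.94 and 3.49 CPM (2.74 ± 0.36, adjusted p = 8.7e-05). The SOX9 start held 39.8 and 39.8 CPM in aRG and 32.4 and 32.5 in bIP (-0.30 ± 0.11, adjusted p = 0.04), a fall that was not called in 10 of 12 other settings, with the opposite sign under loess offsets. The region 27127 bp from EMX2, a patterning factor of the cortex, rose from 1.06 and 1.09 to 4.91 and 4.76 CPM (2.16 ± 0.30, adjusted p = 0.00013), whereas the EMX2 start did not pass (-0.08 ± 0.12). The number of rises in this group was 14 without aRG 2.

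Radial fibre and astroglial genes, which build the long process of radial glia and are shared with astrocytes, fell in 53 of 106 regions (50.0%) and rose in 10 (9.43%), with a median of -0.73. The start of GJA1, the main gap junction protein of radial glia, had 2.27 and 2.39 CPM in aRG and 0.363 and 0.422 CPM in bIP (-2.56 ± 0.45, adjusted p = 0.00066). A region 34888 bp from DIO2, the enzyme that activates thyroid hormone (chr14:61053608-61054749), fell from 3.02 and 2.56 to 0.363 and 0.345 CPM (-2.96 ± 0.38, adjusted p = 8e-05). A region 37404 bp from SLCO1C1, a carrier of thyroid hormone (chr12:20904080-20904933), fell from 11.6 and 11.2 to 1.53 and 1.84 CPM (-2.76 ± 0.27, adjusted p = 1.6e-05). In all 3 the aRG pair agreed closely and lay far above the bIP pair. The few rises included regions of genes whose starts fell. PTPRZ1 gave 5 of the 10 rises, beside 3 falls among its 11 regions, with a median of 0.43. Its largest rise was 2.76 at 1535 bp, and its start fell (-0.39), a call lost in 6 of 12 other settings. FAM107A, known from basal radial glia, fell at its start (-1.17 ± 0.24, adjusted p = 0.0015) and rose 18522 bp away from 0.744 and 0.756 to 9.74 and 4.26 CPM (3.22 ± 0.48, adjusted p = 0.0002; 2.50 without bIP 1). Without aRG 2, 6 regions of this group rose.

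Receptors, ligands and feedback regulators of growth factor signalling fell in 97 of 224 regions (43.3%) and rose in 28 (12.5%; 15 without aRG 2), with a median of -0.50, and 30 of 32 genes had a fall. Of 28 gene starts, 25 fell (89.3%, against 38.3% of all protein-coding starts). With gene-start TMM, 39 regions of the group rose and 74 fell. The FGFR1 start, that of a fibroblast growth factor receptor, went from 52.6 and 50.4 to 27.4 and 33.2 CPM (-0.77 ± 0.11, adjusted p = 0.00019). ETV4 and ETV5 are transcription factors switched on by that pathway. A region 1426 bp from ETV4 (chr17:8576909-8577660) fell from 27.0 and 21.1 to 1.78 and 4.61 CPM (-2.92 ± 0.34, adjusted p = 3.8e-05; -3.77 without bIP 2), and one 12446 bp from ETV5 fell from 13.4 and 12.6 to 1.24 and 3.22 CPM (-2.54 ± 0.38, adjusted p = 0.00022; -3.41 without bIP 2). A region 42446 bp from FZD5, a Wnt receptor, fell from 29.4 and 24.1 to 3.92 and 5.11 CPM (-2.57 ± 0.20, adjusted p = 4.9e-06).

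The rises in this group came from 11 of the 32 genes. A region 25912 bp from FGFR1 (chr8:38421090-38422329) rose from 1.45 and 2.23 to 22 and 14.7 CPM (3.32 ± 0.26, adjusted p = 5.1e-06), opposite to the FGFR1 start. WNT7B, a Wnt ligand, had 7 regions that rose and 0 that fell among 11, the largest from 1.37 and 0.882 to 12 and 7.22 CPM (3.09 ± 0.39, adjusted p = 6.8e-05). A region 32286 bp from SPRY1, an inhibitor of growth factor signalling (chr4:120824869-120826177), rose from 1.37 and 0.882 to 6.87 and 11.2 CPM (2.99 ± 0.38, adjusted p = 6.6e-05) but did not pass between N and bRG (-0.91, adjusted p = 0.084).

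Extracellular matrix and integrin genes, whose products surround progenitors and anchor them, fell in 48 of 98 regions (49.0%) and rose in 12 (12.2%), with a median of -0.65, and all 21 genes with a region had at least 1 fall. At 19 gene starts 17 fell (89.5%, against 38.3% of all protein-coding starts). A region 3626 bp from ITGB5, an integrin subunit (chr3:123038027-123039125), fell from 51.7 and 49.5 to 6.76 and 11.5 CPM (-2.47 ± 0.20, adjusted p = 6.5e-06). The start of VCAN, a large matrix proteoglycan, fell from 44.3 and 38.9 to 20.1 and 23.1 CPM (-0.94 ± 0.14, adjusted p = 0.00023). FN1, fibronectin, had 4 falls and 1 rise among 5 regions, the rise being from 0.783 and 0.378 to 5.16 and 2.15 CPM at 31549 bp (2.64 ± 0.47, adjusted p = 0.00063; 1.87 without bIP 1 and 3.26 without aRG 1).

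Apical junction and polarity genes gave a mixed picture. Of 135 regions, 41 fell (30.4%) and 19 rose (14.1%), with a median of -0.16 that turned to 0.01 with library totals and 0.11 with gene-start TMM. Falls numbered 23 with gene-start TMM, 23 without aRG 1 and 25 without bIP 1. Rises numbered 31 with gene-start TMM, 27 with library totals (beside 31 falls), 10 without aRG 2 and 9 without bIP 1. A region 10186 bp from CRB1, part of the apical polarity complex (chr1:172447817-172448889), fell from 12.9 and 11.5 to 1.2 and 2.34 CPM (-2.79 ± 0.33, adjusted p = 4.8e-05). A region 41271 bp from CTNNB1, which encodes beta-catenin, fell from 11 and 11.8 to 1.93 and 2.42 CPM (-2.39 ± 0.27, adjusted p = 3.2e-05). NUMBL, which restrains Notch and supports junctions, moved the other way. Its region 18377 bp from the start (chr19:38812522-38813554) rose from 0.94 and 1.01 to 14.9 and 13.2 CPM (3.85 ± 0.36, adjusted p = 1.2e-05).

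Notch pathway genes had as many rises as falls with TMM from all regions, and more rises under other scalings. Over 92 regions, 22 rose and 22 fell (23.9% each, near the background), and the median of -0.10 changed sign with library totals, gene-start TMM, loess offsets and without aRG 1. Rises numbered 12 without aRG 2, and falls 14 without bIP 1. With gene-start TMM 29 rose and 13 fell, with library totals 28 and 15, and with loess offsets 29 and 16. Among the target genes of the pathway, HES1 fell in 2 of 2 regions, HES5 in 1 of 3, HEY1 in 1 of 4, HEY2 in 2 of 4, HEYL in 0 of 2 and NRARP, a feedback inhibitor, in 5 of 6, and none of these regions rose. The calls at the starts of NRARP (-0.45) and HEY2 (-0.60) were lost with gene-start TMM, with loess offsets and without bIP 1, and that of NRARP also with DESeq2, with library totals and without aRG 1. A region 1916 bp from NRARP (chr9:109520061-109520717) fell from 14.1 and 17.2 to 3.56 and 6.37 CPM (-1.66 ± 0.29, adjusted p = 0.00054). The receptors NOTCH1 and NOTCH3 fell in 2 of 2 and 1 of 2 regions.

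The ligand DLL3 and the receptor-modifying enzyme MFNG, both also counted as intermediate progenitor genes, had rises and no falls. MFNG rose in 9 of 15 regions, the largest 9428 bp from its start (chr22:20322103-20322506), from 0.588 and 0.546 to 2.8 and 3.68 CPM (2.50 ± 0.38, adjusted p = 0.00022). That region did not pass between N and bRG (-0.04, adjusted p = 0.95). The ligand DLL4 rose in 3 of 6 regions, the single region of the ligand JAG1 fell and that of JAG2 did not pass. RBPJ, the DNA-binding partner of Notch, had 2 rises and 3 falls among 10 regions, with a fall from 9.01 and 11.5 to 1.53 and 1.8 CPM at 21718 bp (-2.62 ± 0.30, adjusted p = 3.5e-05).

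Cell cycle genes fell in 34 of 91 regions (37.4%) and rose in 11 (12.1%), with a median of -0.29. Falls were 15 with gene-start TMM, beside 15 rises, 21 with library totals or loess offsets, 22 with DESeq2, 19 without aRG 2 and 18 without bIP 1, so their number rests on the scaling and on single libraries. Of 25 gene starts, 19 fell (76.0%, against 38.3% of all protein-coding starts). The largest of the starts named here was that of CCND1, the cyclin of the early cycle, from 21.8 and 20.3 to 7.96 and 8.94 CPM (-1.32 ± 0.20, adjusted p = 0.00022). A region 5039 bp from CCND1 fell from 19.9 and 19.7 to 3.82 and 6.06 CPM (-2.0 ± 0.24, adjusted p = 4.5e-05). Single regions near genes of entry into DNA replication opened. One 16200 bp from E2F1 (chr20:33187181-33188506) rose from 2.55 and 2.48 to 22.3 and 16.5 CPM (2.95 ± 0.23, adjusted p = 5.2e-06), and one 24506 bp from CCNE2 (chr8:92821091-92822040) from 0.548 and 0.42 to 6.47 and 5.95 CPM (3.66 ± 0.36, adjusted p = 1.6e-05). Their starts were at -0.20 ± 0.16 and -0.39 ± 0.10, of which the CCNE2 start passed (adjusted p = 0.0077), a call lost under every other scaling, with DESeq2 and without aRG 2 or bIP 1.

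Intermediate progenitor genes opened most among the biological groups. Of 142 regions of 24 genes, 74 rose (52.1%) and 15 fell (10.6%), with a median of 0.93, and 19 genes had a rise. Most of this lay away from gene starts, where 68 of 123 regions rose with a median of 1.18, while at 19 gene starts 6 rose and 3 fell. With gene-start TMM 87 regions rose. Falls in the group numbered 8 with library totals, 6 with gene-start TMM and 7 without aRG 1 or without bIP 1.

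NEUROD1, a basic helix-loop-helix factor that follows EOMES, rose in 6 of 7 regions. Its start held 15.3 and 15.2 CPM in aRG and 30.5 and 31.1 CPM in bIP (1.01 ± 0.15, adjusted p = 0.00017). The region 7024 bp away (chr2B:68228084-68228782) rose from 0.509 and 0.42 to 8.87 and 6.3 CPM (4.01 ± 0.39, adjusted p = 1.5e-05). A region 10906 bp from SLC17A6, a vesicular glutamate transporter (chr11:22095133-22096840), rose from 1.41 and 1.13 to 23.6 and 19.6 CPM (4.08 ± 0.25, adjusted p = 1.7e-06), the largest rise of the group. PPP1R17, a phosphatase inhibitor found in these cells in primates, showed the contrast between start and distal element. Its start did not pass (9.48 and 10.3 CPM in aRG, 9.09 and 11.1 in bIP, 0.03 ± 0.24). The region 6792 bp away (chr7:31761148-31762328) rose from 0.509 and 1.09 to 9.48 and 9.25 CPM (3.55 ± 0.35, adjusted p = 1.5e-05; 4.19 without aRG 2).

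Not every gene of the group opened. The single region of NEUROG2, the factor that starts neurogenesis, fell (-1.27), and SMOC1 had 3 falls and 0 rises among 5 regions. A region 18247 bp from SMOC1 fell from 12.7 and 8.78 to 4.0 and 4.11 CPM (-1.41 ± 0.31, adjusted p = 0.0029), and one 23051 bp from RASGRP1 from 12 and 11 to 2.43 and 3.68 CPM (-1.91 ± 0.29, adjusted p = 0.00024). KIF26A had no call among 6 regions.

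Regions of newborn neuron transcription factors rose more often than they fell. Of 181 regions, 64 rose (35.4%) and 31 fell (17.1%), with a median of 0.30. With gene-start TMM 76 rose and 22 fell. At 16 gene starts of this group 5 rose and 4 fell. The NEUROD2 start went from 4.27 and 3.7 to 31.8 and 29.8 CPM (2.95 ± 0.16, adjusted p = 1.7e-06), and 8 of 9 NEUROD2 regions rose. The MYT1L start, that of a factor that represses other fates in neurons, went from 6.11 and 6.76 to 45.3 and 41.3 CPM (2.75 ± 0.13, adjusted p = 1.6e-06). Both starts had tight pairs far apart. CUX1, an upper-layer factor, rose 37376 bp from its start (chr7:97964391-97965385) from 0.862 and 0.84 to 17.5 and 8.94 CPM (3.95 ± 0.40, adjusted p = 1.8e-05).

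Some other factors of the same group had more falls than rises. BCL11A had 10 falls and 1 rise among 20 regions and TLE4 3 falls and 0 rises among 4. A region 29115 bp from ZBTB18 (chr1:219171808-219172773) fell from 10.3 and 9.07 to 1.56 and 2.5 CPM (-2.26 ± 0.31, adjusted p = 0.00012), and the ZBTB18 start did not pass (-0.11 ± 0.17). TBR1, which follows EOMES in new neurons, rose in 2 of 3 regions.

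Neuronal cytoskeleton and RNA-binding genes had 49 rises (29.9%) and 37 falls (22.6%; 24 without aRG 1 or without bIP 1) among 164 regions, with a median of 0.17. The split was 66 to 26 with gene-start TMM and 59 to 28 with library totals. SRRM4, a splicing regulator of neural microexons, stood out at its start, from 13.6 and 14.2 to 55.6 and 49.7 CPM (1.92 ± 0.12, adjusted p = 1.8e-06), and all 3 of its regions rose. A region 3526 bp from INA, a neuronal intermediate filament (chr10:99115609-99116048), rose from 0.235 and 0.294 to 6.69 and 3.76 CPM (4.29 ± 0.42, adjusted p = 1.6e-05). MAP2, a microtubule protein of dendrites, had 5 rises and 7 falls among 22 regions, and a region 31066 bp from its start fell from 16.4 and 14.4 to 1.56 and 3.8 CPM (-2.52 ± 0.35, adjusted p = 0.00013). The MAP2 start did not pass (0.17 ± 0.13), though it was called as a rise with library totals (0.34), gene-start TMM (0.44) and loess offsets (0.45). Without bIP 2 the fall at 31066 bp was -3.32. STMN1, a tubulin-binding protein, fell at its start (-0.56 ± 0.11, adjusted p = 0.00094; -0.15 and not called with loess offsets) and rose at 10997 bp (3.55 ± 0.51, adjusted p = 0.00016; 4.17 without aRG 2).

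Genes of synapses and ion channels, which neurons use later, rose in 75 of 193 regions (38.9%) and fell in 25 (13.0%), with a median of 0.60, and 24 of 29 genes had a rise. Falls numbered 16 without aRG 1, 13 without aRG 2, 14 without bIP 1 and 16 with gene-start TMM, beside 93 rises. A region 13309 bp from CACNA2D1, a calcium channel subunit (chr7:78457637-78458859), rose from 0.705 and 0.546 to 8.07 and 11.4 CPM (3.94 ± 0.36, adjusted p = 1.1e-05). It did not pass between N and bRG (0.29, adjusted p = 0.48). A region 29336 bp from CACNA2D2 rose from 0.392 and 0.42 to 8.36 and 3.88 CPM (3.90 ± 0.50, adjusted p = 7.1e-05; 3.24 without bIP 1), with bIP 1 the higher. The gene starts of CACNA1A, CACNA2D1 and CACNA2D2 did not pass (0.11 ± 0.25, -0.11 ± 0.10 and 0.12 ± 0.21), and in this group 7 of 25 starts rose and 1 fell. A region 48338 bp from CACNA1E (chr1:156635128-156636224) fell from 14.4 and 12.1 to 1.67 and 1.23 CPM (-3.18 ± 0.29, adjusted p = 1.1e-05).

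Non-coding RNA genes of neural tissue had 28 falls (27.2%; 16 with gene-start TMM) and 18 rises (17.5%) among 103 regions, with a median of -0.37. Rises outnumbered falls with gene-start TMM (21 to 16) and with library totals (21 to 20). LINC00599, the host of a microRNA-124 precursor, rose in 5 of 9 regions, the largest 39292 bp away (chr8:8910603-8911831), from 0.353 and 0.294 to 5.71 and 4.72 CPM (3.99 ± 0.49, adjusted p = 5.3e-05). MIR7-3HG, host of a microRNA-7 precursor, rose in 5 of 7. A region 43999 bp from RMST, a long non-coding RNA that binds SOX2, fell from 4.78 and 6.09 to 1.42 and 1.11 CPM (-2.10 ± 0.31, adjusted p = 0.00019). EMX2OS, antisense to EMX2, fell in 3 of 3 regions.

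**Figure D3:**
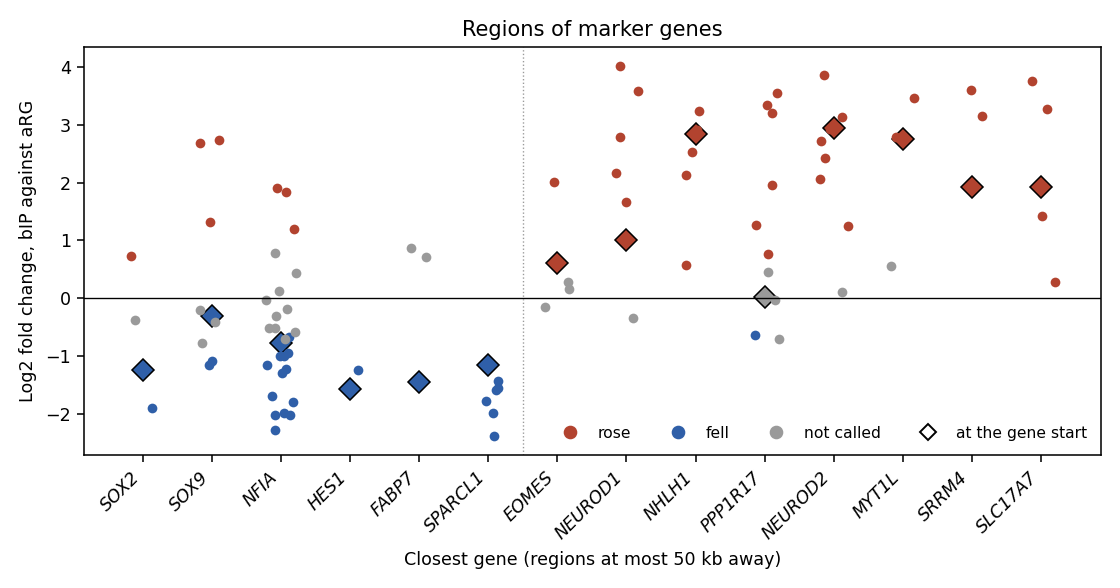
Log2 fold change, bIP against aRG, of every tested region within 50 kb of 14 genes, chosen after their values were seen. Each point is a region (red rose, blue fell, grey not called) and diamonds mark gene starts. The 6 radial glial genes on the left mostly lie below 0 (SOX2 start -1.24), with rises near SOX2, SOX9 and NFIA, and the 8 genes of progenitors and neurons on the right mostly above (NEUROD2 start 2.95).

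Markers of other cell types that organoids can hold were described in the same way. They are to be read against the 23.8% of regions that rose and 22.5% that fell within 50 kb of any gene. These counts are of open regions near the genes, and no library had 0 counts over any list. Cajal-Retzius neuron markers had the largest share of rises: 33 of 57 regions rose (57.9%) and 1 fell, with a median of 1.16, and the summed level was 246 and 217 CPM in aRG, 491 and 412 CPM in bIP, 220 and 202 CPM in bRG, and 414 and 317 CPM in N. EBF2 alone gave 15 of these rises, and CACNA2D2, with 9, is also a synaptic gene above. The single region of RELN, the defining secreted protein of these cells, did not pass (0.08), and TP73 rose in 1 of 2. The part of such cells in the bIP result was not tested.

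Endothelial markers rose in 10 of 26 regions and fell in 2, summing to 117 and 99.3 CPM in aRG and 164 and 141 CPM in bIP. The rises came from 4 of 9 genes with a region and the falls from 1. FLT1 rose in 5 of 5 regions, CDH5 rose at 1432 bp (2.99) and ERG at 12613 bp (3.33). KDR fell in 2 of 2 regions, and CLDN5 did not pass. Oligodendrocyte lineage markers rose in 7 of 30 and fell in 3 (0 without aRG 1, 1 without bIP 1, and 1 beside 9 rises with library totals or gene-start TMM), with 177 and 144 CPM in aRG and 197 and 164 CPM in bIP. The median of that list, 0.11, was -0.11 without bIP 1. Its share of rises, 23.3%, was near the 23.8% of all regions within 50 kb, and its share of falls was 10.0%, against 22.5%. For the endothelial list the shares were 38.5% and 7.69%.

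The other lists of this kind were lower in bIP. Inhibitory neuron and ganglionic eminence markers fell in 22 of 59 regions and rose in 8 (4 without aRG 1 or without bIP 1), summing to 560 and 497 CPM in aRG and 352 and 362 CPM in bIP. Choroid plexus and cortical hem markers fell in 18 of 60 and rose in 9 (5 without aRG 1 or without bIP 1; 13 beside 12 falls with gene-start TMM), with 286 and 286 against 209 and 189 CPM. Mesenchymal markers fell in 16 of 32 (10 without aRG 1 or without bIP 1, and 10 beside 5 rises with gene-start TMM) and rose in 4 (2 without aRG 1 or without aRG 2), with 278 and 228 against 172 and 167 CPM. Microglia and blood markers fell in 9 of 20 and rose in 5, with 104 and 76.5 against 48.8 and 46.5 CPM. Pluripotent cell markers fell in 7 of 17 and rose in 1 (0 with DESeq2 and without aRG 1, aRG 2 or bIP 1), with 88.5 and 93.7 against 27.2 and 39.6 CPM, and 4 of these falls were near ZFP42. NANOG, a defining factor of pluripotent cells, had 1 region that fell from 1.45 and 0.756 to 0.4 and 0.115 CPM (-2.07 ± 0.59, adjusted p = 0.011), lost without aRG 1 or bIP 2 and at -3.22 without bIP 1. Whether cells of these types contributed to either population was not tested.

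**Figure D4:**
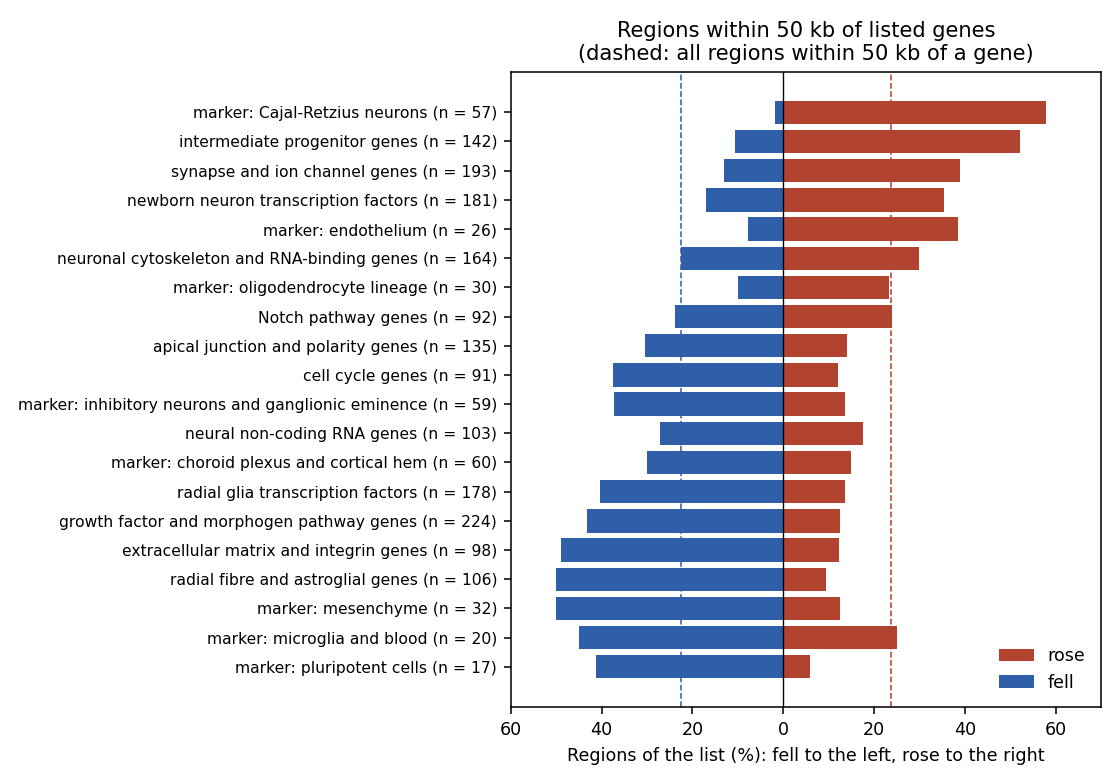
Share of the regions of each list (%, within 50 kb of a member) that fell (blue, to the left of 0) or rose (red, to the right) from aRG to bIP, with the number of regions. Dashed lines mark all regions within 50 kb of a gene, 22.5% and 23.8%. Cajal-Retzius markers and intermediate progenitor genes have the most rises, and radial fibre, mesenchymal and matrix genes the most falls, none of which was tested against the background.

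Rises and falls were often neighbours. Of 14058 protein-coding genes with a tested region within 50 kb, 2446 had rises only, 4515 falls only and 2349 both. Their regions include 10368 gene starts, of which 38.3% fell and 3.59% rose, a balance that changes with the scaling. Among the 3225 genes with at least 5 regions, 1638 had both, 770 rises only and 714 falls only. NFIA had 14 falls, 3 rises and 10 regions not called among 27. Every region rose at 7 of these genes and every region fell at 5. The former were NHLH1, a helix-loop-helix factor of progenitors leaving the cycle (6 regions, median 2.69), SLC17A7, a vesicular glutamate transporter (5 regions, 1.92), FLT1, ACTC1, EPS15L1, FMNL1 and PDE6B. The latter were SPARCL1, a matrix protein of radial glia and astrocytes (7 regions, -1.58), ADGRV1, BMT2, GAS1, a hedgehog co-receptor, and PDLIM5. At the 1638 genes with both, the call at 1 region thus did not give the call at its others. Whether regions of a gene shared a direction more or less often than unrelated regions was not tested.

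The change from aRG to bIP was then set beside the change from bRG to N, whose libraries did not enter it, though they share its estimate of the spread. Over all regions, 37.5% rose and 30.4% fell from bRG to N. Of the regions that rose in bIP, 37496 (77.1%) also rose in N against bRG and 1081 (2.22%) fell, with a median log2 fold change of 2.19. Of the regions that fell in bIP, 39167 (87.3%) also fell and 252 (0.561%) rose, with a median of -2.28. Regions not called between bIP and aRG rose in 34.9% and fell in 19.1%. At gene starts the concordance of falls was lower: 65.1% of the 5686 gene-start falls also fell in N against bRG, against 87.6% to 91.1% in the classes of given distance away from the start.

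**Figure D5:**
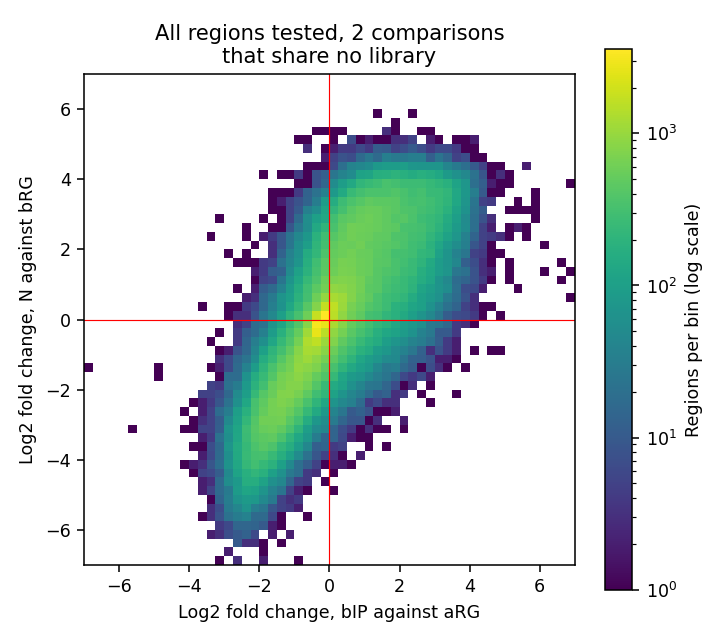
Log2 fold change from aRG to bIP (horizontal) and from bRG to N (vertical) for all 198227 regions tested; colour gives the number of regions per bin on a log scale. The comparisons share no library. Most regions lie along a diagonal from lower left to upper right, and a smaller set that opened in bIP lies at or below 0 on the vertical axis.

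Some regions called between bIP and aRG were not called between N and bRG. N was not compared with bIP here, so whether a change in bIP lasted in neurons was not tested. Of the regions that rose in bIP, 10053 (20.7%) did not pass between N and bRG, and of those that fell, 5463 (12.2%). FAT1, an atypical cadherin of the apical surface, had such a region 15953 bp from its start (chr4:184695926-184696919), which rose from 2.27 and 1.97 to 13.8 and 17.5 CPM (2.88 ± 0.37, adjusted p = 7.2e-05) and did not pass between N and bRG (0.20, adjusted p = 0.65). The region 27127 bp from EMX2 named above behaved alike (0.42, adjusted p = 0.28). A p that misses the threshold does not show that these regions stayed the same.

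The deposited consensus peak lists, 1 per population, do not use the counts but come from the same sorted populations. Their overlap with the calls is therefore not separate support. Of the regions that rose, 44.2% overlapped a peak in bIP only, 13.8% one in both, 0.109% one in aRG only and 41.9% one in neither. Of the regions that fell, 44.2% overlapped a peak in aRG only, 36.2% one in both and 19.5% one in neither. Closing regions thus more often kept a peak in the other population than opening regions had one before. Levels differed too: the median was 1.42 and 1.8 CPM in bIP for closing regions and 0.627 and 0.672 CPM in aRG for opening ones. Gene starts made up 5686 of the closing regions, many of them small falls that depend on the scaling, and 1138 of the opening ones. Whether level or gene starts account for the peaks was not tested. With a single list for each cell type, no spread can be given for the shares.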

How the data were processed

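Open chromatin was measured by ATAC-seq in 8 libraries, 2 from each of 4 populations sorted from chimpanzee cerebral organoids. The authors deposited a table of raw read counts per region, with panTro6 positions, a closest gene and its distance in bp, which is used as another kind of value, per the file headers. They also deposited 1 consensus peak list per population with a score, a fold ratio and −log10 q-values per peak. Named in the submitters' processing notes are panTro6, hg38, MACS2 and bcl2fastq 2.20.0. The aligner, the read filters, the matching of regions between species and the pooling of libraries for peaks were not given in the sources used here. ATAC-seq reads are often shifted for the enzyme's cut and cleared of duplicates, and whether that was done is likewise not given.

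Of 218080 rows, 6725 have no panTro6 identifier and a total count of 0. Another 7 identifiers occur on more than 1 row and were used once. The 8 libraries were fitted together in edgeR 4.0.16 (R 4.3.3, limma 3.58.1) with TMM factors, filterByExpr, which kept 198227 regions, and a robust quasi-likelihood F-test with population as the only term. The fits were tested on simulated data. The contrasts were bIP against aRG and N against bRG. Standard errors are the absolute log2 fold change over the square root of F. Alternatives were DESeq2 1.42.0, library totals, TMM from gene-start regions, loess offsets, other filters, a replicate block and fits without each library. Starts are printed counting from 1. Peaks and regions were joined by an overlap of at least 1 base. The scores, ratios and −log10 values the authors deposited were not tested.

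Named regions are those past the threshold with non-overlapping groups and a mean of at least 1 CPM, by absolute log2 fold change with 1 region per gene. They are the 10 largest each way within 50 kb of a protein-coding gene, the 4 largest each way next to other genes and the 4 largest each way over 200 kb away. Results that fall under these rules but concern withheld items are not reported here. From each of 20 lists (399 genes) come up to 3 each way and the starts of the genes so named. The comparison, the members and the lists were chosen with earlier results of these data known. Counts of regions for single genes and the genes whose regions all moved one way were picked after their values were seen.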

Additional observations from a re-analysis of the deposited data

How the results depend on the processing

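Without 1 library of the comparison at a time, 35159 to 44242 regions rose and 29402 to 40871 fell, the lowest counts coming without bIP 1. Of the 93512 calls, 79780 held when bIP 2 was left out, 68904 for aRG 2, 63488 for bIP 1 and 66066 for aRG 1, and DESeq2 held 77285 of 93027. At gene starts, where rises numbered 1138 and falls 5686, falls numbered 2872 with DESeq2, 2645 with library totals, 1790 with gene-start TMM, 1983 with loess offsets and 2996 to 5964 without 1 library. Rises there numbered 1841 with gene-start TMM, 2219 with loess offsets and 789 to 1069 without 1 library. With peaks covering at least 0.5 of the region, 42.2% of the regions that rose met a peak in bIP only. Of 235 named regions 198 were called, and 161 of these kept their call in every setting. Among 2810 of their values under alternatives, 6 reversed: the starts of SOX9 (0.04), PARD6B (0.17), RBPJ (0.20) and CACNA2D1 (0.25) with loess offsets, and those of PARD6B (0.04) and RBPJ (0.00) with gene-start TMM. The cause was not tested. With the replicate number as a block, 54164 regions rose and 52153 fell, and 93505 of the 93512 calls were held. The deviations of same-numbered libraries correlated at 0.18 between aRG and bIP and at 0.163 to 0.552 over the 6 pairs of populations, highest between aRG and bRG, but there are only 2 numbers and the labels do not say what they mark. The planned motif search was not run, since no genome of the build was used here. With 2 libraries a group, levels under about 1 CPM rest on few counts.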

Other observations

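A small set of regions opened in bIP and closed from bRG to N. These were picked after their values were seen. The region 56232 bp from LRGUK had 1.88 and 1.81 CPM in aRG, 11.4 and 11.7 CPM in bIP, 2.35 and 2.11 CPM in bRG, and 0.59 and 0.511 CPM in N. By edgeR's quasi-likelihood test it rose from aRG to bIP by 2.65 ± 0.28 (adjusted p = 2.2e-05) and fell from bRG to N (-2.01 ± 0.31, adjusted p = 0.0001). The bIP libraries were the highest of the 4 populations and the N libraries the lowest. The region 1651 bp from MIR2278 went from 0.548 and 0.882 CPM in aRG to 5.09 and 5.11 CPM in bIP, by 2.83, and changed by -1.99 from bRG to N.

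The reverse was rarer. The region 3677 bp from AL356488.3 fell from 8.03 and 10.3 CPM in aRG to 2.83 and 3.49 CPM in bIP (-1.54 ± 0.24) and stood at 17.6 and 21.9 CPM in N, with a change of 1.60 ± 0.23 from bRG to N. It was lowest in bIP and highest in N.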
